A study of Mus musculus with 16 samples.

Results

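The proteasome genes followed here were all genes of the deposited count table whose symbol begins with Psma, Psmb, Psmc, Psmd, Psme, Psmf or Psmg followed by a digit. There were 46 of them among 11710 genes, and all 46 passed the filter on low counts. By role they comprised 7 alpha ring subunits, 7 beta ring subunits, 3 inducible beta subunits, 6 ATPases of the cap, 11 non-ATPase cap subunits, 3 chaperones of cap assembly, 4 activators, the regulator Psmf1 and 4 chaperones of core assembly. Psma8 and Psmb11, which encode tissue-restricted forms of core subunits, were not analysed here.

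RNA sequencing was performed on rotator cuff muscle of C57BL/6J mice (BL6), a reference inbred strain, and MRL/MpJ mice (MRL), an inbred strain known for its healing of some wounds. In each strain, 4 samples came from muscle after tenectomy with denervation, in which the tendon is removed and the nerve supply of the muscle is cut, and 4 from unoperated muscle. The design asks whether the response to this injury differs between the strains. The labels name the supraspinatus and the series description the infraspinatus, and neither gives age, sex or the time since surgery. No label says that the samples of a group came from separate animals, so the p-values measure the spread between these samples, which may be technical.

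Total counts ranged from 24323862 to 43552964 per sample, and every operated BL6 library was shallower than every unoperated BL6 library. At these depths 3 counts correspond to 0.0689 to 0.123 CPM (counts per 1000000 counts of the library), and the lowest value of any proteasome gene in any sample was 2.46 CPM. All 10 muscle fibre markers checked were detected in each group. Their summed level per sample was 131644 to 175152 CPM in unoperated and 59974 to 163159 in operated BL6. In MRL it was 123177 to 137722 CPM without surgery and 84743 to 110200 after it. Of the 9 leukocyte and macrophage markers analysed, none was at 0 in any group. Along the first principal component (51.8% of the variance), replicate 1 of unoperated MRL lay at -7.49, against -44.9 to -38.7 in the other 3. Replicate 4 of operated BL6 lay farthest from the unoperated samples on that axis, at 86.1. The counts of surgery calls without these 2 libraries are given beside the main counts. In bulk muscle, fewer cells of a type and less RNA per cell cannot be told apart, which holds for every difference below.

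The proteasome is a barrel-shaped protease that degrades proteins marked with ubiquitin. Its core consists of stacked rings of alpha and beta subunits, with the proteolytic sites on beta subunits, and its cap recognises, unfolds and feeds in the substrate. Immune signals, above all interferon gamma, can exchange the catalytic beta subunits for inducible ones and raise the PA28 activator, which favours peptides for antigen presentation. In skeletal muscle the ubiquitin and proteasome system is known for breaking down contractile protein during atrophy after denervation.

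Psmb8 and Psmb9 had the lowest levels per length of all members in unoperated BL6 and rose in both strains, and they are neighbours on chromosome 17 within the major histocompatibility region. In the GENCODE M21 annotation of GRCm38, Psmb9 lies on the minus strand at 34181987 to 34187764 and Psmb8 on the plus strand at 34197721 to 34201454. Tap1, a subunit of the peptide transporter for antigen presentation, lies between them at 34187553 to 34197225 on the plus strand. The 300 bases around the RefSeq start of each gene (GRCm38.p6, 250 before and 50 after) are shown because both genes changed together and because their reads border on those of Tap1. Both windows lie wholly inside the GENCODE bounds of these genes, whose annotation includes longer transcripts. Capitals mark a match to TTCNNNGAA, the letters of the gamma-activated site bound by STAT factors, searched on both strands.
Psmb8, chr17:34197945-34198244, plus strand: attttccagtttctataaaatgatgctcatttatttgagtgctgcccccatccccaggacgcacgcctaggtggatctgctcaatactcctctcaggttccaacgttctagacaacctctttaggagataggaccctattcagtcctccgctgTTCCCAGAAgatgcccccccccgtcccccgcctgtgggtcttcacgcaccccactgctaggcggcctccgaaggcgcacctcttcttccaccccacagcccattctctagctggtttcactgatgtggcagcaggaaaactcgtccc
Psmb9, chr17:34187281-34187580, minus strand: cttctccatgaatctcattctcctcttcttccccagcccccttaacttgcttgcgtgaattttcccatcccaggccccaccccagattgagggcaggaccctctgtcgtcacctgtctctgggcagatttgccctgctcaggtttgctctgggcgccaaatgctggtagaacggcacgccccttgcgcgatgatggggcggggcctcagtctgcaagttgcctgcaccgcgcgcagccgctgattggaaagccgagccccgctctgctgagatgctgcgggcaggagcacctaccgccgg

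The match in Psmb8 began 97 bases before the RefSeq start, and these letters were not in the Psmb9 window. RefSeq promoter windows were found for 39 of the 46 members. TTCNNNGAA was present in 3 of the 39 (7.69%), in Psmb8, Psmd2 and Psmg1. It was present in 9.55% of all 27025 genes with a window and in 7.9% of the 9129 that are in the count table. TGACNNNGC, the letters of the antioxidant response element, were present in 6 of the 39 (15.4%), against 14% of all and 17.1% of those in the count table. CCAAT was present in 13 (33.3%), against 41.1% and 42.5%. The interferon-stimulated response element, searched as GAAA, any 2 bases and GAAA again, was present in 5 of the 39 (12.8%), in Psmb3, Psmd4, Psmd9, Psme1 and Psmg4, against 3.99% of all and 3.44% of the 9129 genes of the count table with a window. None of the 3 inducible subunits held it. A match is a description of the letters and not of a bound site.

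**Figure D1:**
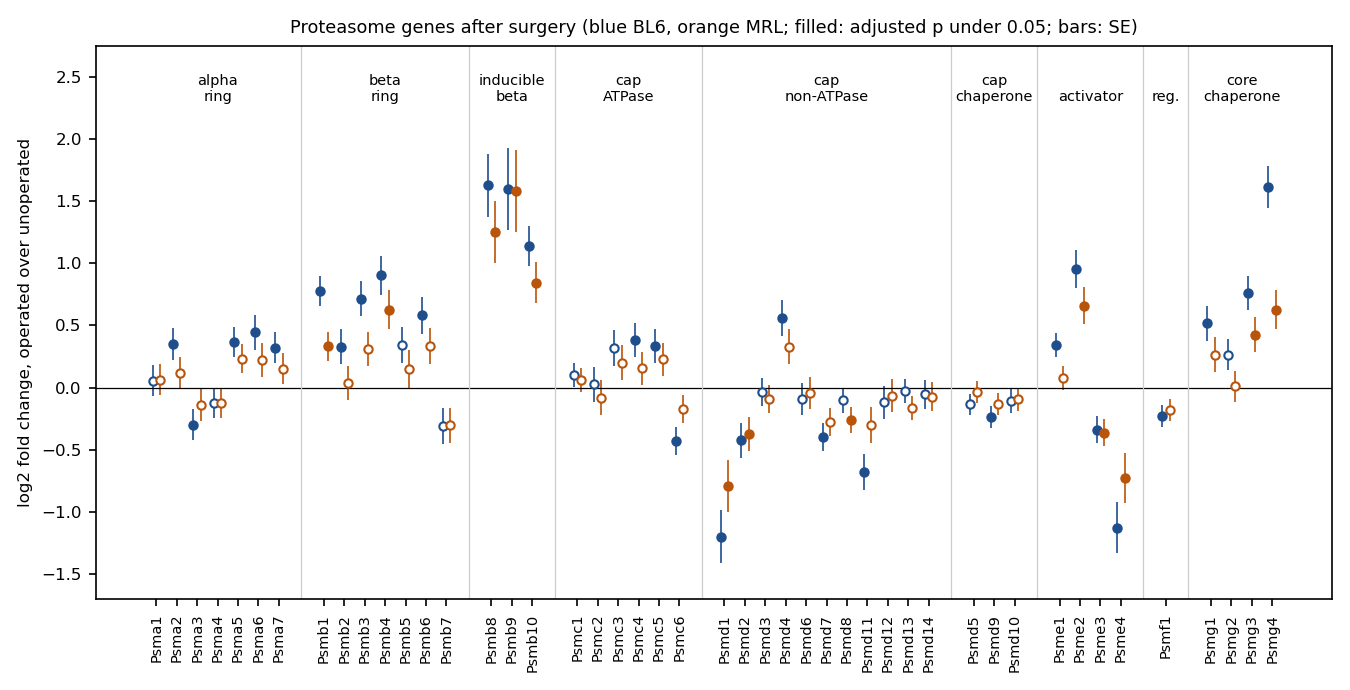
Log2 fold change of each of the 46 proteasome genes, operated over unoperated, in BL6 (blue) and MRL (orange), grouped by role. Bars are standard errors, and filled points passed an adjusted p of 0.05 with edgeR's quasi-likelihood test. The inducible subunits lie between 0.84 and 1.63 in both strains, and Psmd1 and Psme4 lie lowest.

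After surgery, proteasome genes were called in both directions. In BL6, edgeR's quasi-likelihood test called 30 of 46 members at an adjusted p under 0.05, with 20 higher and 10 lower, where 67.9% of all genes tested were called (35.1% higher and 32.8% lower). In MRL, 13 of 46 passed, 8 higher and 5 lower, where 45% of all genes were called (22.3% higher and 22.7% lower). The share of members called was near the background in BL6 and below it in MRL. The 4 operated samples lay wholly above the 4 unoperated ones for 15 members and wholly below for 6 in BL6, where 27.5% and 29.2% of all genes did so. In MRL this held for 5 and 7 members, where 17% and 16.7% of all genes did so. The median log2 fold change over the members was 0.18 in BL6 and 0.05 in MRL, beside 0.04 and 0.01 over all genes tested. Summed over all members, BL6 muscle held 4551 ± 228 CPM before and 4723 ± 680 after surgery, and MRL muscle 4544 ± 95.7 before and 4502 ± 415 after (SD, n = 4 each), differences smaller than the spread between replicates.

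Without replicate 1 of unoperated MRL and replicate 4 of operated BL6, the counts were 31 in BL6 (23 higher, 8 lower) and 16 in MRL (11 higher, 5 lower). That fit called 64.2% of all genes in BL6 and 55% in MRL. The MRL count was 21 (14 higher, 7 lower) without replicate 4 of operated MRL, where 52.5% of all genes were called. With scaling by total counts, which moved the median of all genes in BL6 from 0.04 to 0.18, the BL6 split was 24 higher and 7 lower. That scaling called 63% of all genes in BL6. Of the 30 members called in BL6 and the 13 called in MRL, 12 were called in both strains in the same direction. The 8 higher in both were Psmb1, Psmb4, Psmb8, Psmb9, Psmb10, Psme2, Psmg3 and Psmg4, and the 4 lower in both were Psmd1, Psmd2, Psme3 and Psme4. For all genes tested, 19.9% (2328) were called higher in both strains and 20.9% (2446) lower in both, among 7950 calls in BL6 and 5272 in MRL.

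All 3 inducible beta subunits rose in both strains, beside 19.9% of all genes called higher in both. These replace the catalytic subunits of the standard core: Psmb8 replaces Psmb5, Psmb9 replaces Psmb6 and Psmb10 replaces Psmb7. In BL6 Psmb8 stood at 5.83, 6.25, 6.50 and 5.25 CPM in the 4 unoperated samples and at 14.2, 12.0, 20.1 and 27.2 in the operated ones. In MRL it stood at 9.87, 6.06, 6.84 and 8.02 CPM without surgery and at 23.8, 17.3, 20.6 and 11.8 after it. The groups did not overlap in either strain, replicate 4 was the highest operated BL6 sample, and replicate 4 was the lowest operated MRL sample. The log2 fold change of Psmb8 was 1.63 (SE 0.25, adjusted p = 8e-05) in BL6 and 1.25 (SE 0.25, adjusted p = 0.00213) in MRL.

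Psmb9 rose from 2.46, 3.76, 4.10 and 3.38 CPM to 6.94, 6.04, 12.4 and 16.1 in BL6. In MRL it rose from 4.65, 2.99, 2.93 and 3.22 CPM to 16.04, 8.98, 10.3 and 6.05. Its groups did not overlap in either strain, and the spread within the operated groups was wide. The log2 fold change was 1.60 (SE 0.33, adjusted p = 0.000623) in BL6 and 1.58 (SE 0.33, adjusted p = 0.00265) in MRL. Psmb10 rose from 13.5, 15.7, 14.8 and 14.2 CPM to 29.1, 27.9, 35.4 and 35.5 in BL6. In MRL it rose from 18.8, 15.5, 11.2 and 17.0 CPM to 31.0, 31.3, 30.2 and 20.03, so that 3 of the 4 operated samples lay close together and replicate 4 was lower. Its log2 fold change was 1.14 (SE 0.16, adjusted p = 4.71e-05) in BL6 and 0.84 (SE 0.16, adjusted p = 0.00186) in MRL. The calls of Psmb8, Psmb9 and Psmb10 held in both strains under all 17 alternative fits.

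**Figure D2:**
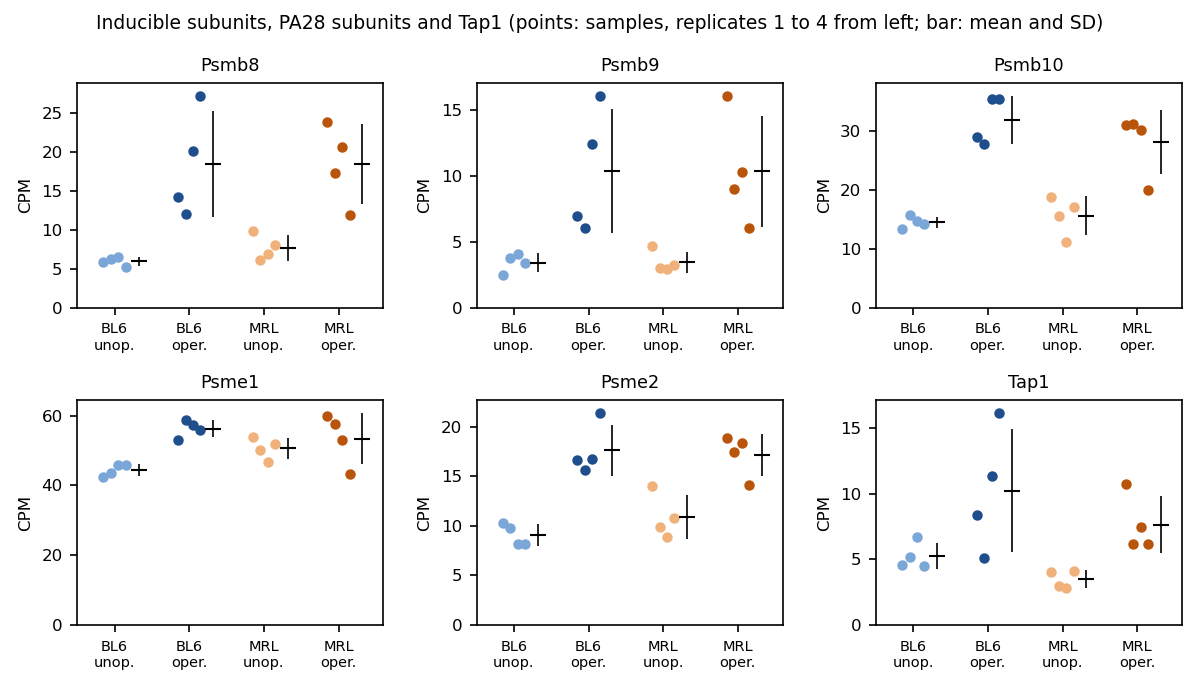
CPM of the inducible subunits Psmb8, Psmb9 and Psmb10, the PA28 subunits Psme1 and Psme2, and Tap1 in each sample, with replicates 1 to 4 from left to right and the mean and SD as a bar. Operated samples of Psmb8, Psmb9, Psmb10 and Psme2 lie above all unoperated samples of their strain.

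Per length of annotated exons, the inducible subunits were scarce beside their standard counterparts before surgery. In unoperated BL6, Psmb8 stood at 1.76 ± 0.162 RPKM (counts per kilobase of exon and per 1000000 counts, mean ± SD, n = 4) against 37.8 ± 3.31 for Psmb5. Psmb9 stood at 0.936 ± 0.192 RPKM against 99.8 ± 5.48 for Psmb6, and Psmb10 at 8.52 ± 0.552 against 59.6 ± 4.90 for Psmb7. In operated BL6 the 3 inducible subunits stood at 5.43 ± 2.004, 2.83 ± 1.29 and 18.7 ± 2.38 RPKM, still below the standard subunit each replaces. Annotated exon bases include all transcripts of a gene, so these levels depend on the annotation.

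The ratio of each inducible subunit to its standard counterpart was compared within strains, a measure that does not depend on scaling between samples. The log2 ratio of Psmb10 to Psmb7 rose by 1.46 in BL6, from -3.80 ± 0.0784 to -2.34 ± 0.513 (SD, n = 4), with an exact two-sided permutation p of 0.0286 (adjusted 0.0343 over 6 tests). In MRL it rose by 1.15, with the same exact permutation p, which is the smallest that 4 against 4 samples allow. For Psmb8 to Psmb5 the rises were 1.21 in BL6 and 1.09 in MRL (exact permutation p of 0.0286 and adjusted p of 0.0343 each). Psmb9 to Psmb6 rose by 1.19 in MRL with the same exact permutation p. In BL6 the ratio of Psmb9 to Psmb6 differed by 0.92, with an exact permutation p of 0.114, because operated replicate 2, at -5.78, lay within the unoperated range of -6.11 to -5.58. Leaving out 1 library at a time, the difference ran from 0.58 (without operated replicate 4) to 1.23 (without operated replicate 2). The exact permutation p ran from 0.0286, reached once the overlapping sample was removed, to 0.257.

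Among the standard counterparts, Psmb6, which carries the caspase-like site, rose in BL6 with a log2 fold change of 0.58 (SE 0.15, adjusted p = 0.00274). In MRL it stood at 0.33 (adjusted p = 0.072), and it passed without unoperated replicate 1 (adjusted p = 0.042) or operated replicate 4 (adjusted p = 0.0075). Psmb5, which carries the chymotrypsin-like site, stood at 0.34 in BL6 (adjusted p = 0.0506) and 0.15 in MRL (adjusted p = 0.422), and it passed in BL6 without unoperated replicate 2, operated replicate 3 or operated replicate 4 (adjusted p down to 0.0262). Psmb7, which carries the trypsin-like site, stood at -0.31 in BL6 (adjusted p = 0.0651) and -0.30 in MRL (adjusted p = 0.0923), and it passed in BL6 when unoperated replicate 1 or operated replicate 2 was left out (adjusted p = 0.0398 and 0.00757).

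Markers of other cell types also changed with surgery. The summed level of leukocyte and macrophage markers was between 61.2 and 211 CPM before surgery and between 164 and 1003 after it in BL6, and between 104 and 355 before and 204 and 389 after in MRL. In BL6, 6 of these 9 markers were called higher, and in MRL 2 of 9, with none called lower. The share of all genes called higher was 35.1% in BL6 and 22.3% in MRL, which applies to each marker list here. Replicate 4 of operated BL6 had the highest leukocyte sum of its group and the highest Psmb8 and Psmb9. In operated MRL, replicate 1 had the highest Psmb8 and Psmb9 and the lowest leukocyte sum, 204 CPM. Without BL6 operated replicate 4 the 3 inducible subunits were still called higher. Adipocyte markers were called higher for 4 of 4 in each strain, with sums of 208 to 279 CPM before and 1209 to 1656 after surgery in BL6 and 262 to 369 before and 1086 to 1902 after in MRL. Endothelial markers were called higher for 3 of 4 in BL6, with sums of 252 to 351 CPM before and 497 to 629.7 after, and for 4 of 4 in MRL, with 191 to 263 before and 268 to 626 after. Fibroblast markers were called higher for 2 of 5 in BL6 and for none of 5 in MRL. In replicates 1 to 4, endothelial sums were 615, 497, 628.8 and 629.7 CPM in operated BL6. In operated MRL they were 626, 521, 576 and 268 CPM. In both groups the samples ranked by endothelial sum as they did by Psmb8 and Psmb9. Adipocyte sums ranked the samples so in operated MRL but not in operated BL6, and fibroblast sums in operated BL6 but not in operated MRL. Muscle fibre markers were called lower for 4 of 10 in BL6 and 3 of 10 in MRL, and higher for none. The share of all genes called lower was 32.8% in BL6 and 22.7% in MRL. No marker of these lists was at 0 in any group, and the part of these cells in the rises and falls was not tested.

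Other genes of antigen processing and interferon response moved with the inducible subunits. Of 16 genes on that list, 12 were called higher and 1 lower in BL6, and 12 higher and none lower in MRL, with medians of 0.88 and 0.89. Over all genes, 35.1% were called higher and 32.8% lower in BL6, and 22.3% and 22.7% in MRL. Tap1 rose by 0.97 in BL6 and 1.13 in MRL, Tap2 by 0.75 and 0.61, and Tapbp, the peptide-loading chaperone tapasin, by 0.87 and 0.55 on the log2 scale. The MRL call of Tapbp was lost in 3 of 8 fits that leave out a library (adjusted p up to 0.0554). Psmb9 and Tap1 share 212 exon bases on opposite strands, and Psmb8 shares 498 with the antisense transcript Gm20496. The use of strand in counting is not given in the sources used here, so reads in these shared bases cannot be assigned between the partners.

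The activators moved in both directions. Psme1 and Psme2 encode the PA28 alpha and beta subunits, which form a ring that opens the core and which respond to interferon gamma. Psme2 rose from 10.3, 9.81, 8.19 and 8.15 CPM to 16.7, 15.6, 16.7 and 21.4 in BL6, and from 14.03, 9.86, 8.84 and 10.8 to 18.9, 17.4, 18.4 and 14.1 in MRL. The groups did not overlap in either strain, though in MRL the lowest operated sample was only just above the highest unoperated one. Its log2 fold change was 0.95 (SE 0.15, adjusted p = 9.87e-05) in BL6 and 0.66 (SE 0.15, adjusted p = 0.00419) in MRL. Psme1 rose in BL6 by 0.34 (SE 0.10, adjusted p = 0.00549) and stood at 0.08 in MRL (adjusted p = 0.52). Psme2 has a near-identical copy, Psme2b, at 99.4% identity, so its count depends on how such reads were assigned.

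Psme4, the nuclear activator PA200, fell in both strains. In BL6 it stood at 325, 345, 399 and 437 CPM before surgery and at 178, 245, 139 and 129.9 after it. In MRL it stood at 273, 351, 398 and 309.8 CPM before and at 171, 223, 162 and 247 after. The groups did not overlap in either strain. Its log2 fold change was -1.12 (SE 0.20, adjusted p = 0.000241) in BL6 and -0.73 (SE 0.20, adjusted p = 0.0102) in MRL. Psme3, which forms the nuclear PA28 gamma ring, fell by 0.34 in BL6 (adjusted p = 0.0143) and 0.36 in MRL (adjusted p = 0.017), and the MRL call was lost when any of 3 libraries was left out (unoperated replicate 4, operated replicates 1 and 3; adjusted p up to 0.0581). Psmf1, an inhibitor of the core in vitro, fell by 0.23 in BL6 (adjusted p = 0.0319), a call lost in 6 of the 8 fits that leave out a BL6 library (adjusted p up to 0.0917). In MRL Psmf1 stood at -0.18 (adjusted p = 0.103).

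Of the 14 subunits of the standard core rings, 9 rose and 1 fell in BL6, beside 35.1% and 32.8% of all genes. With the length trend described below removed, 3 rose and 5 fell, where 65.7% of all genes were called in either direction. Among the 7 alpha ring subunits, 4 rose (Psma2, Psma5, Psma6 and Psma7) and 1 fell (Psma3), with a median log2 fold change of 0.32. The calls of Psma2, Psma7 and Psma3 were lost in 4, 5 and 6 of the 8 fits that leave out a BL6 library (adjusted p up to 0.132). In MRL none of the 7 passed the test, with 0 at an unadjusted p under 0.05, where 54.2% of all genes had one, and a median of 0.11. Without operated MRL replicate 4, Psma5 and Psma6 passed there, each at 0.34 (adjusted p = 0.0111 and 0.0236). Among the 7 beta ring subunits 5 rose in BL6, with a median of 0.58, and 2 in MRL, with a median of 0.31. In MRL 22.3% of all genes were called higher. Psmb4 had the largest change of the standard rings. In BL6 it stood at 132, 165, 148 and 142 CPM before surgery and at 281, 305, 278 and 232 after it, with no overlap, a log2 fold change of 0.90 (SE 0.16) and an adjusted p of 0.000181. In MRL it stood at 176, 156, 138 and 154 CPM before and at 289, 264, 245 and 162 after, where operated replicate 4 overlapped the unoperated samples. Its MRL change was 0.63 (SE 0.16, adjusted p = 0.00641). Psmb1 rose by 0.78 in BL6 and 0.33 in MRL (adjusted p = 0.0335), the MRL call being lost in 6 of 8 fits that leave out a library (adjusted p up to 0.112). Psmb3 rose by 0.72 in BL6 and stood at 0.31 in MRL (adjusted p = 0.0754), where it passed without unoperated replicate 1 (adjusted p = 0.0359) or operated replicate 4 (adjusted p = 0.00787). The BL6 call of Psmb2 (0.33) was lost in 7 of 8 such fits. Psmb1, Psmb3 and Psmb4 are structural beta subunits without a catalytic site.

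Among the chaperones that assemble the core, Psmg4 had the largest log2 fold change with surgery in both strains, before the length trend was removed. Its level in unoperated BL6 was low, at 3.03 CPM against 26.2 for Psmg2. Psmg1 and Psmg2 pair to start the alpha ring, and Psmg3 and Psmg4 form a second pair. In BL6, 3 of the 4 rose, and in MRL 2 of the 4, beside 35.1% and 22.3% of all genes. Psmg4 rose most, from 3.004, 2.87, 3.20 and 3.03 CPM to 9.04, 7.01, 9.99 and 10.9 in BL6, a log2 fold change of 1.61 (SE 0.17, adjusted p = 9.57e-06), or 0.76 with the length trend removed. In MRL it stood at 10.9, 10.1, 8.51 and 10.2 CPM before surgery and 17.2, 15.7, 17.9 and 10.7 after it, a change of 0.63 (SE 0.16, adjusted p = 0.00714). Unoperated MRL samples thus lay in the range of operated BL6 samples, and operated MRL replicate 4 lay within the unoperated range. Psmg3 rose by 0.76 in BL6 (adjusted p = 0.000259) and 0.43 in MRL (adjusted p = 0.0217), the latter lost without unoperated replicate 2, unoperated replicate 3 or operated replicate 2 (adjusted p up to 0.0786). Psmg1 rose by 0.52 in BL6 (adjusted p = 0.00416) and stood at 0.26 in MRL (adjusted p = 0.127, and 0.0319 without operated replicate 4). Psmg2 stood at 0.26 in BL6 (adjusted p = 0.0729, and 0.0126 without operated replicate 4) and at 0.01 in MRL.

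**Figure D3:**
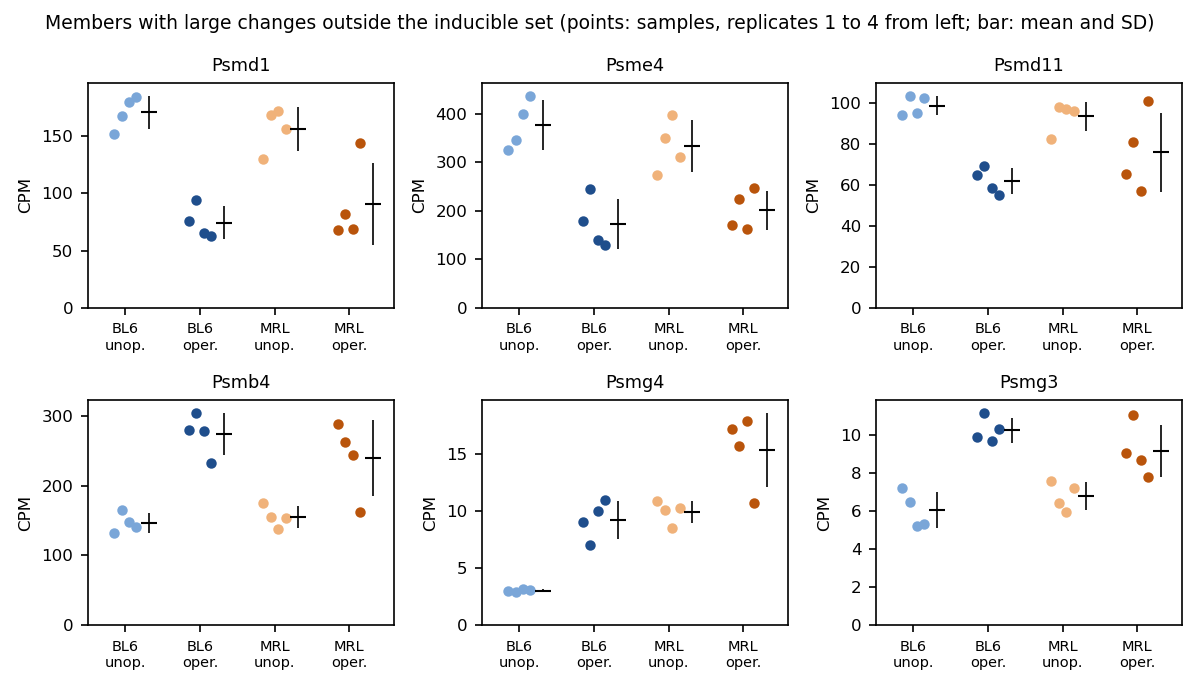
CPM of Psmd1, Psme4, Psmd11, Psmb4, Psmg4 and Psmg3 in each sample, with replicates 1 to 4 from left to right and the mean and SD as a bar. Replicate 4 of operated MRL lies nearest the unoperated samples for Psmd1, at 144 CPM, and for Psmb4, at 162 CPM.

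The cap showed fewer rises. Of the 6 ATPases, which form the ring that unfolds substrates, 2 rose (Psmc4 and Psmc5) and 1 fell (Psmc6) in BL6, and none passed in MRL, where 0 had an unadjusted p under 0.05. The calls of Psmc4 and Psmc5 were lost in 3 and 5 of the 8 fits that leave out a BL6 library (adjusted p up to 0.122). Of the 11 non-ATPase subunits, 1 rose and 4 fell in BL6, and 3 fell in MRL. These falls, 36.4% in BL6 and 27.3% in MRL, were near the 32.8% and 22.7% of all genes called lower. Called higher were 35.1% of all genes in BL6 and 22.3% in MRL. Psmd4, the ubiquitin receptor that rose in BL6, had a log2 fold change of 0.56 there (adjusted p = 0.00311) and stood at 0.33 in MRL (adjusted p = 0.0709, and 0.0142 without operated replicate 4). It is named outside the naming rule and was chosen after its value was seen, as were Psma2, Psma5, Psma6, Psma7, Psmb2, Psmb4, Psmc4, Psmc5, Psmd7 and Psmd8.

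Psmd1, a large scaffold subunit of the cap, had the largest fall. In BL6 it stood at 152, 167, 179.5 and 185 CPM before surgery and at 76.1, 94.5, 65.0 and 62.4 after it, with no overlap. In MRL it stood at 129.7, 168, 172 and 156 CPM before and at 67.7, 81.5, 69.0 and 144 after, so that replicate 4 alone overlapped the unoperated samples. Its log2 fold change was -1.20 (SE 0.21, adjusted p = 0.000212) in BL6 and -0.79 (SE 0.21, adjusted p = 0.00854) in MRL. Psmd11, which binds cap and core together, fell by 0.68 in BL6 (adjusted p = 0.000884) and stood at -0.30 in MRL (adjusted p = 0.101), or -0.47 (adjusted p = 0.00437) without operated replicate 4. Psmd2, the other large scaffold, fell by 0.42 in BL6 (adjusted p = 0.0132) and 0.37 in MRL (adjusted p = 0.0383), the MRL call being lost in 6 of the 8 fits that leave out a library (adjusted p up to 0.112). Psmd7 fell in BL6 and stood at -0.28 in MRL (adjusted p = 0.0547, and 0.0369 without operated replicate 4). Psmd8 fell in MRL at an adjusted p of 0.0497, a call lost in 7 of 8 fits that leave out a library. The 3 cap chaperones Psmd5, Psmd9 and Psmd10 had negative values throughout, and Psmd9 passed in BL6, at -0.24 (adjusted p = 0.0272), a call lost in 4 of 8 such fits (adjusted p up to 0.0976).

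Shorter members tended to have higher values after surgery, as did shorter genes in general. Over the 46 members, the correlation between log2 annotated exon length and log2 fold change was -0.54 (Pearson) and -0.53 (Spearman) in BL6, and -0.40 and -0.52 in MRL. Over all 11707 genes with a length it was -0.27 and -0.28 in BL6 and -0.16 and -0.16 in MRL. These correlations run across genes that share the same libraries and are descriptions only. In the shortest quartile of all genes the median BL6 change was 0.38 and in the longest -0.26. The 24 members in the shortest quartile had a BL6 median of 0.34, and the 4 in the longest a median of -0.68. Psmd1, with 7265 exon bases, and Psme4, with 8382, were among the longest members, and Psmg4, with 555, was the shortest.

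**Figure D4:**
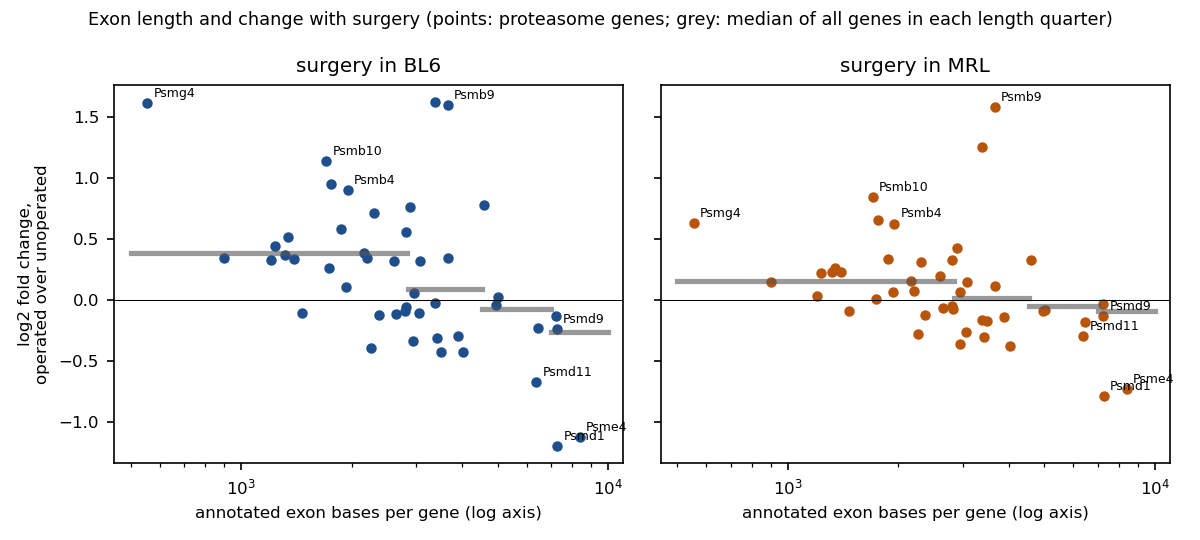
Log2 fold change with surgery against annotated exon bases (log axis) for the 46 proteasome genes in BL6 and MRL, with grey lines for the median of all genes in each length quartile. The grey medians go from 0.38 to -0.26 in BL6, and Psmb9 and Psmb10 lie above them in both strains.

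In an alternative chosen after the data were seen, the trend of each sample with exon length was removed before the same test. In BL6 the split became 10 higher and 16 lower, where 65.7% of all genes were called. Of the 20 rises 10 were kept (Psmb1, Psmb3, Psmb4, Psmb8, Psmb9, Psmb10, Psmd4, Psme2, Psmg3 and Psmg4). The call of Psmb2, a beta subunit without a catalytic site, turned from higher (0.33, adjusted p = 0.0441) to lower (-0.25, adjusted p = 0.0372). Psmg4 went from 1.61 to 0.76 (adjusted p = 0.00106). Of the 10 falls 8 were kept, Psmd1 at -1.03 (adjusted p = 0.000445) among them. None of the 4 alpha ring rises was kept, and the alpha ring median went from 0.32 to -0.12, with 0 higher and 2 lower. The beta ring had 3 higher and 3 lower, and its median went from 0.58 to 0.22. Psmg1 went to 0.00, Psme1 to 0.06 and Psmb6 to 0.22 (adjusted p = 0.124). In MRL 7 of 8 rises and 5 of 5 falls were kept, and Psmg4 stood at 0.11 (adjusted p = 0.572). With the trend removed, the 3 inducible subunits, Psmb1, Psmb4, Psme2, Psmg3, Psmd1, Psmd2, Psme3 and Psme4 held their calls in both strains.

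The strains did not differ detectably in the response to surgery. No member passed the interaction test of edgeR, beside 0.248% of all genes, and 2 members had an unadjusted p under 0.05, Psmb1 and Psmg4, beside 15.7% of all genes. DESeq2 called 1 member, Psmg4, beside 2.14% of all genes, and limma voom none, beside 0.205%. The interaction of Psmg4 was -0.98 (SE 0.23, adjusted p = 0.096), which means a smaller rise in MRL. Its adjusted p was 0.0146 with DESeq2 and 0.0381 without operated BL6 replicate 2, and over all its alternatives ranged from 0.0146 to 0.291. For the inducible subunits the interaction was -0.37 (SE 0.35) for Psmb8, -0.02 (SE 0.46) for Psmb9 and -0.29 (SE 0.23) for Psmb10. A total of 45 of 46 members had the same sign in both strains, beside 87.7% of all genes, and 38 of 46 had the larger absolute change in BL6, beside 76.2% of all genes.

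Between strains, 5 members differed without surgery, 2 higher in MRL and 3 lower, where 10.4% of all genes were called (5.02% higher and 5.36% lower). After surgery 5 differed, again 2 higher and 3 lower, where 12.9% of all genes were called (7.6% higher and 5.27% lower). Psmg4 was higher in MRL, by 1.71 (SE 0.17, adjusted p = 2.79e-06) without surgery, a 3.28-fold difference, and by 0.73 (SE 0.16, adjusted p = 0.00658) after it. Without surgery the groups were far apart, 3.03 ± 0.134 CPM in BL6 and 9.93 ± 0.997 in MRL (SD, n = 4). Psmb5 was lower in MRL, by 0.93 without surgery and by 1.12 after it. Without surgery Psmb1 was higher in MRL by 0.41 (adjusted p = 0.0367), Psma3 lower by 0.45 (adjusted p = 0.0306) and Psmd9 lower by 0.44 (adjusted p = 0.00393). After surgery Psmc6 was higher by 0.45 (adjusted p = 0.0147), Psmb3 lower by 0.53 (adjusted p = 0.0182) and Psmd9 lower by 0.33 (adjusted p = 0.023). The submitters' notes name only the mm10 build for samples of both strains, and its effect on differences between strains was not tested.

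Several of these calls were fragile. The unoperated count was 3 when BL6 replicate 3, BL6 replicate 4 or MRL replicate 2 was left out. These fits called 7.01%, 7.09% and 7.7% of all genes. With total-count scaling, which moved the median of all genes from 0.01 to 0.15, the count was 6 higher and 1 lower, beside 9.01% of all genes. The Psmb1 call was lost in 6 of 8 fits that leave out a library (adjusted p up to 0.107) and the Psma3 call in 5 of 8 (adjusted p up to 0.0952). The Psmd9 call after surgery was lost without operated MRL replicate 1, 2 or 3 (adjusted p up to 0.0567). Psmg4 and Psmb5 without surgery, and Psmb5 after it, were the calls that held in all 17 alternatives.

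A near-identical gene bears on how the Psmb5 count can be read. Gm3375 is annotated as a processed pseudogene on the plus strand of chromosome 7, at 3181093 to 3181888, and it aligned to the Psmb5 transcript with 8 differences in 795 bases, all within the 792 coding bases. The stretch with the closest group of these differences, coding bases 376 to 465 counted from the A of the start codon, is shown with the differing bases in capitals. The substitutions, with the Psmb5 base first, are T387A, C417T and T465C.
Psmb5: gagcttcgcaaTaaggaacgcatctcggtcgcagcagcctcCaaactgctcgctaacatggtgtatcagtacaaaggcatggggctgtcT
Gm3375: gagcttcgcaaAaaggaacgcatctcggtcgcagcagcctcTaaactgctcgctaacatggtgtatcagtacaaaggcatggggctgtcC

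Gm3375 had 2 to 8 counts in each BL6 library and 570 to 989 in each MRL library. In CPM it stood at 0.128 ± 0.0682 in unoperated BL6 and 0.143 ± 0.0539 in operated BL6, against 26.3 ± 1.64 and 25.0 ± 4.25 in MRL (SD, n = 4 each). Psmb5 itself stood at 34.0 ± 2.97 and 43.1 ± 7.11 CPM in BL6 and at 17.9 ± 2.17 and 19.9 ± 4.03 in MRL. When the counts of both genes were added, an analysis chosen after the data were seen, the sum was 34.1 ± 2.96 CPM in unoperated BL6 and 44.2 ± 3.54 in unoperated MRL. The MRL difference of the sum was 0.37 (adjusted p = 0.0893) without surgery and 0.05 (adjusted p = 0.831) after it, so the lower Psmb5 count in MRL was not seen in the sum. How reads that match both genes were counted is not given in the sources used here, and from which gene the reads came was not tested. The change of the sum with surgery was 0.34 in BL6 (adjusted p = 0.0319) and 0.02 in MRL (adjusted p = 0.903). The ratio of Psmb8 to Psmb5 in MRL carries the same uncertainty, since it uses the Psmb5 count alone.

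**Figure D5:**
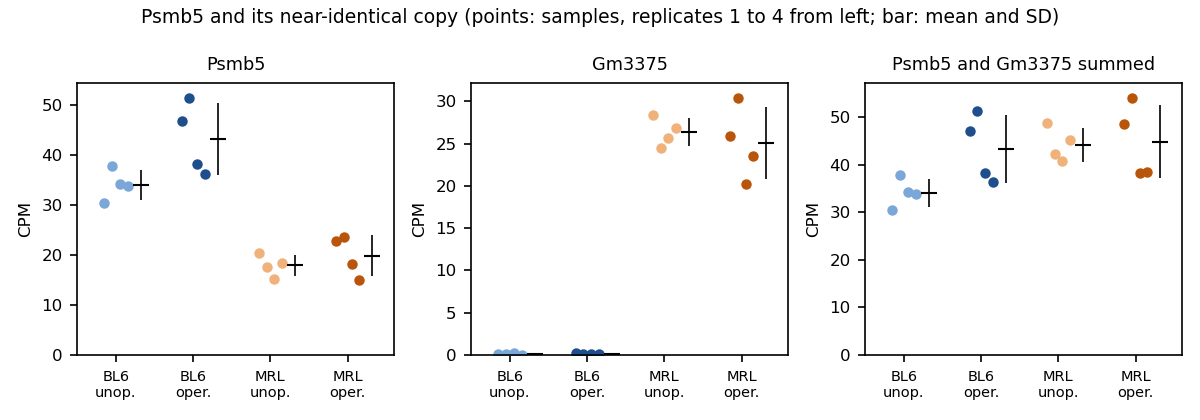
CPM of Psmb5, of the pseudogene Gm3375 and of both summed in each sample, with replicates 1 to 4 from left to right and the mean and SD as a bar. Gm3375 is near 0 in all BL6 samples and between 20.2 and 30.3 in MRL, while the summed values of the strains overlap after surgery.

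In all, 8 members have another annotated transcript at 95% identity or more over at least 50% of their own (Psma4, Psma5, Psmb3, Psmb5, Psmc1, Psmd11, Psmd2 and Psme2), and their counts are uncertain to that extent. Psmb3 is among those that differed between strains. A match to another annotated gene at 90% identity or more over at least 200 bases was found for 19 members. Psma3 and Psmb1, which differed between strains without surgery, are among these. Psma3 matches the processed pseudogene Gm13835 at 100% identity over 665 bases, 23.4% of its 2846-base transcript.

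Among genes of the pathway outside the symbol rule, more fell than rose. Of 29 analysed, 6 rose and 16 fell in BL6, with a median of -0.41, and 4 rose and 12 fell in MRL, with a median of -0.23. Over all genes, 35.1% were called higher and 32.8% lower in BL6, and 22.3% and 22.7% in MRL. Pomp, the maturation factor of the core, rose by 0.71 in BL6 and 0.40 in MRL. Sem1, a small cap subunit, had rises of 0.78 and 0.47. The MRL call of Pomp was lost without operated replicate 1 (adjusted p = 0.0558), and that of Sem1 in 5 of 8 fits that leave out a library (adjusted p up to 0.0697). Adrm1, a ubiquitin receptor of the cap, stood at 0.24 (adjusted p = 0.155, and 0.0443 without operated BL6 replicate 4) and -0.04 (adjusted p = 0.821). Nfe2l1, the transcription factor that induces proteasome genes when the complex is inhibited, stood at -0.60 in BL6 (adjusted p = 0.0508, and 0.0395 without unoperated replicate 1) and at 0.08 in MRL (adjusted p = 0.80). In operated MRL its replicates stood at 399, 396, 373 and 922 CPM, and without replicate 4 the MRL value was -0.34 (adjusted p = 0.106). Of the muscle ubiquitin ligases known from atrophy, Fbxo32 (atrogin) fell by 1.35 in BL6 and 1.27 in MRL, and Trim63 (MuRF) stood at -0.32 (adjusted p = 0.577) and -0.98 (adjusted p = 0.117). Fbxo30, another such ligase, fell by 0.46 in BL6 (adjusted p = 0.0354, lost in 4 of 8 fits that leave out a library) and stood at -0.17 in MRL (adjusted p = 0.439).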

How the data were processed

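Counts per gene for 16 samples in 4 groups of 4 were taken from the table the authors deposited, as whole numbers with no normalization. Per the submitters' processing notes, FastQC, STAR and edgeR were used with the mm10 build; versions, counting program and use of strand are not given in the sources used here. The log2 fold changes and p-values with false discovery rates in the authors' deposited table of comparisons, per the file headers, were read beside the results computed here.

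Counts were scaled with TMM factors in edgeR 4.0.16 (R 4.3.3), and filterByExpr with a minimum count of 10 kept 11709 of 11710 genes. The 4 group means were estimated in a single quasi-likelihood model over the 16 samples, and p-values were adjusted by Benjamini-Hochberg over all genes tested, with calls at an adjusted p under 0.05. CPM used TMM-scaled library sizes. Ratios of subunits used log2 CPM with a prior count of 2 and exact permutation tests. The model was tried on simulated counts in which far fewer genes changed than were called with surgery here. That trial does not measure its error rate in these data. Alternatives used DESeq2 1.42.0 (its size factors and its test), limma 3.58.1 (voom), total-count scaling, no filter, a replicate block, only the groups compared, and fits leaving out each library. Removal of the length trend (lowess, span 0.3) and omission of 2 libraries together were added after seeing the data. Total counts were 24323862 to 43552964, and floors of 3 counts cover counting error only.

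Exon lengths, coordinates and near copies (BLAST 2.17.0, at least 90% identity over 200 bases) came from GENCODE M21 of GRCm38, and promoters from RefSeq (GRCm38.p6). The members and gene lists were chosen with earlier results of these data known. Named with values were Psmb5 to Psmb10, Psme1 to Psme4, Psmf1, Psmg1 to Psmg4 and, in each comparison, the 3 called members that rose most and the 3 that fell most; of a gene list, the first 3 analysed in its order, with Nfe2l1. Of the 5 erythroid markers, which the results do not describe, none was called with surgery in either strain.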

Additional observations from a re-analysis of the deposited data

Results flagged for a closer look

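In 8 of the 184 sets of 4 samples tested (46 genes in 4 groups), the extreme sample was separated from the others by more than Dixon's 95% critical value; chance alone flags about 1 in 20. Psmb9 was highest in unoperated MRL replicate 1, at 4.65 CPM against 2.93 to 3.22 in the other 3, and Psmd11 was lowest in that library, at 82.6 CPM against 96.2 to 98.0. Psmb10 was lowest in operated MRL replicate 4, at 20.03 CPM against 30.2 to 31.3. Psmb7 was lowest in unoperated BL6 replicate 1, at 179 CPM against 209 to 214, as were Psmd4, at 125 CPM against 159 to 163, and Psmd13, at 83.8 CPM against 94.4 to 96.3. Psmc6 was lowest in unoperated BL6 replicate 3, at 113 CPM against 126 to 128. Psmd5 was highest in operated MRL replicate 4, at 19.4 CPM against 15.6 to 15.7.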

How the results depend on the processing

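The number of members called with surgery was 30 in BL6 and 23 to 31 when 1 library was left out, and 13 in MRL and 9 to 21. Leaving out a library, the share of all genes called ran from 61.4% to 69.8% in BL6 and from 29.8% to 52.5% in MRL. With the replicate block the counts were 31 in BL6, 13 in MRL, 0 for the interaction, and 5 each for MRL against BL6 without and after surgery, so the block moved none by over 1.5 times. In the same order, the block fit called 67.7%, 44.4%, 0.0171%, 9.79% and 11.6% of all genes. The numbers in the titles are the only pairing: the mean correlation of deviations between samples of the same number was -0.141 in BL6 surgery, 0.092 in MRL surgery and 0.16 and 0.165 between strains. It was over 0.1 for 1 of 4 pairs in BL6 surgery and for 3 of 4 in each of the other comparisons. Since no comparison had all 4 pairs over 0.1, the samples were taken to share only a number. For the interaction, DESeq2 called 1 member, beside 2.14% of all genes. Leaving out a library gave 0 to 1, and 1 only without operated BL6 replicate 2, where 0.589% of all genes were called. Between strains the count of 5 without surgery was 3 to 4 leaving out a library and 8 with only the groups compared. All genes were called at 10.4% in the fit over all groups, 7.01% to 9.41% leaving out a library and 20.8% with only the groups compared. The count of 5 after surgery was 4 to 6 and 1, where the share of all genes was 12.9%, then 8.8% to 15.7% and 4.91%. The cause of these changes was not tested. The log2 ratio changes with the replicate block were 1.21 and 1.09 (Psmb8 to Psmb5, BL6 and MRL), 1.19 (Psmb9 to Psmb6, MRL), and 1.46 and 1.15 (Psmb10 to Psmb7), each with an exact p of 0.125, the smallest that 4 pairs allow. Leaving out a library, they ranged over 0.92 to 1.48 and 0.99 to 1.19, 0.98 to 1.30, and 1.26 to 1.65 and 1.01 to 1.30, and Psmb9 to Psmb6 in BL6 over 0.58 to 1.23. With the length trend removed, 26 members were called in BL6 (10 higher, 16 lower) and 15 in MRL (7 higher, 8 lower), and with total-count scaling 31 (24 higher) and 17 (12 higher). The shares of all genes called were 65.7% and 46% with the length trend removed, and 63% and 33.5% with total-count scaling. Psmb5 in BL6 went from 0.34 to -0.36 (adjusted p = 0.00718) with the length trend removed. In the authors' deposited table, 21 members were higher and 8 lower in BL6 (28 calls shared with the fit here), and 8 higher and 7 lower in MRL (12 shared), with no call in the opposite direction. The authors' values called 64.9% of all genes in BL6 and 56.4% in MRL.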
